A study of Mus musculus with 16 samples.

Results

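The 10 genes described here, Pdx1, Nkx2-2, Nkx6-1, Neurod1, Isl1, Myt1, Pax6, Foxa2, Insm1 and Mnx1, encode transcription factors that build and maintain the identity of pancreatic beta cells. They were chosen by symbol in the platform annotation, and each was represented by its probe set of highest mean. They make up 10 of the 18193 genes with a named probe set and 10 of the 10610 genes tested, and all 10 passed the filter on low values. Their levels were measured in R7T1 cells, a mouse beta-cell line, on 16 Affymetrix arrays. The cells received 1 of 4 treatments: DMSO, the solvent control; BayK8644(2a), taken here to be the dihydropyridine agonist of L-type calcium channels; Exendin-4, a peptide agonist of the GLP-1 receptor; or both agents together, called the combination below. Each treatment was sampled at 0.5, 2, 6 and 24 h on a single array, which leaves each treatment and time without a replicate. The sources used here do not give doses. R7T1 is a single cell line, and the labels name no separate cultures, so the spread behind every p-value is that of the arrays and may be technical. Without replicates, that spread also holds whatever the models leave out. The series title speaks of small molecules that induce beta-cell expansion, and the comparisons below ask how the identity factors stood while cells were exposed to the agents.

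Beta-cell identity rests on a network of transcription factors that bind to each other's genes and to those of insulin secretion. Pdx1 is needed for the pancreas to form and later drives insulin transcription, and Foxa2 is a pioneer factor that acts upstream of it. Insm1, Neurod1, Isl1, Myt1 and Pax6 act in the formation of all endocrine cells, while Nkx2-2, Nkx6-1 and Mnx1 help to hold cells in the beta lineage at the expense of alpha, delta and other islet fates. In beta cells, calcium entry and cAMP reach the nucleus through CREB, whose full site is the palindrome TGACGTCA (the cAMP response element), and Neurod1 binds E-boxes, CANNTG, together with a partner of the E-protein family.

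All 10 genes were found in the RefSeq gene table for GRCm38.p6 by gene identifier, and 6 of them lie on chromosome 2. RefSeq sequence just upstream of a listed transcription start was at hand for 9 of the 10, the exception being Insm1, and was searched on both strands for the 2 motifs. The full cAMP response element occurred in 1 of the 14 windows of these genes, against 508 of 32851 windows of the same length in the table (1.55%). An E-box occurred in 9 of 14, against 66.2% of all windows. Shown here are 250 bases before the start of the genes whose levels moved with BayK8644, Nkx2-2, Myt1 and Pax6, and of Pdx1, whose highest and lowest arrays lay closest together. Each is written 5′ to 3′ along the gene's own strand and ends 1 base before the listed start. Capitals mark matches to TGACGTCA or CANNTG. They are a description of letters in these windows and say nothing of binding. The first listed start was taken for Myt1 and Pax6, which have several. For Nkx2-2 the only listed start lies inside the gene (chr2:147176485-147195434). The sequence upstream of the gene's own 5′ end was therefore not searched.
Nkx2-2: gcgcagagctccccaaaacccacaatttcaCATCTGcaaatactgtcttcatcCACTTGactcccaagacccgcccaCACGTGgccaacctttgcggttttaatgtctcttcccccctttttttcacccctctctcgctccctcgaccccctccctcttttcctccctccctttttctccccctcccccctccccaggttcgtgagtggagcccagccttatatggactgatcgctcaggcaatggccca
Myt1: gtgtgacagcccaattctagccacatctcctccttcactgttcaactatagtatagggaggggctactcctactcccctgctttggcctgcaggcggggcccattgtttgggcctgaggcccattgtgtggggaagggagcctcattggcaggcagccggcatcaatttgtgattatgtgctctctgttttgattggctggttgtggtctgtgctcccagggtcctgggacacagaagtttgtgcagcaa
Pax6: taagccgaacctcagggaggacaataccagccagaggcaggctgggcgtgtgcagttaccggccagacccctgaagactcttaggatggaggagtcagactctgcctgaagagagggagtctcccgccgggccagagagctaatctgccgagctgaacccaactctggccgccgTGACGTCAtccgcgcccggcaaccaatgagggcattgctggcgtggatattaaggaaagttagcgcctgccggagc
Pdx1: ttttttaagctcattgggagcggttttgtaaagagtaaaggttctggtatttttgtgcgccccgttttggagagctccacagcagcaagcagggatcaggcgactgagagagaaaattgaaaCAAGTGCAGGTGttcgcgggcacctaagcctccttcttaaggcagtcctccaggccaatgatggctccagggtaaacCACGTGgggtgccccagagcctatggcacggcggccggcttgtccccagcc
The Nkx2-2 window (chr2:147186403-147186652, minus strand) held E-boxes that begin 220, 197 and 173 bases before the start. The Myt1 window (chr2:181763082-181763331, plus strand) held neither motif. The Pax6 window (chr2:105668646-105668895, plus strand) held the cAMP response element 76 bases before the start and no E-box. The Pdx1 window (chr5:147269847-147270096, plus strand) held E-boxes 128, 122 and 51 bases before it. The Nkx2-2 and Pdx1 windows held no full cAMP response element in these 250 bases. Whether any of these motifs bears on the levels of the genes was not tested.

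The arrays were alike in general quality. The share of probe sets at or over the filter ran from 46.7 to 47.7%, the median intensity lay between 10.5 and 11.6, and the Actb control, read near its 3′ end against its 5′ end, differed by a log2 value that lay between 0.587 and 0.802. Ins2 lay between 15.6 and 15.79 on the log2 scale on all arrays, which marks the cells as insulin-producing. Glp1r, the receptor gene of exendin-4, was under the filter on all arrays, so its level was not measured.

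Levels are log2 of the deposited GCRMA intensity, and differences are differences of log2 level. Levels of different genes are not compared, since each comes from another set of probes. Within genes the spread was small. The highest of the 16 arrays exceeded the lowest by 0.208 for Pdx1 (1.15-fold) and 0.219 for Isl1 (1.16-fold), ranges that stood at the 3.48 and 4.5 percentiles of those of all genes tested. Mnx1 (0.8, 1.74-fold) and Nkx2-2 (0.73, 1.66-fold) had the widest ranges of the 10 genes, at the 79.8 and 74.9 percentiles. The other 6 genes had ranges between 0.456 (Foxa2) and 0.646 (Insm1). No pair of arrays therefore differed by as much as 2-fold in any of the 10 genes.

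**Figure D1:**
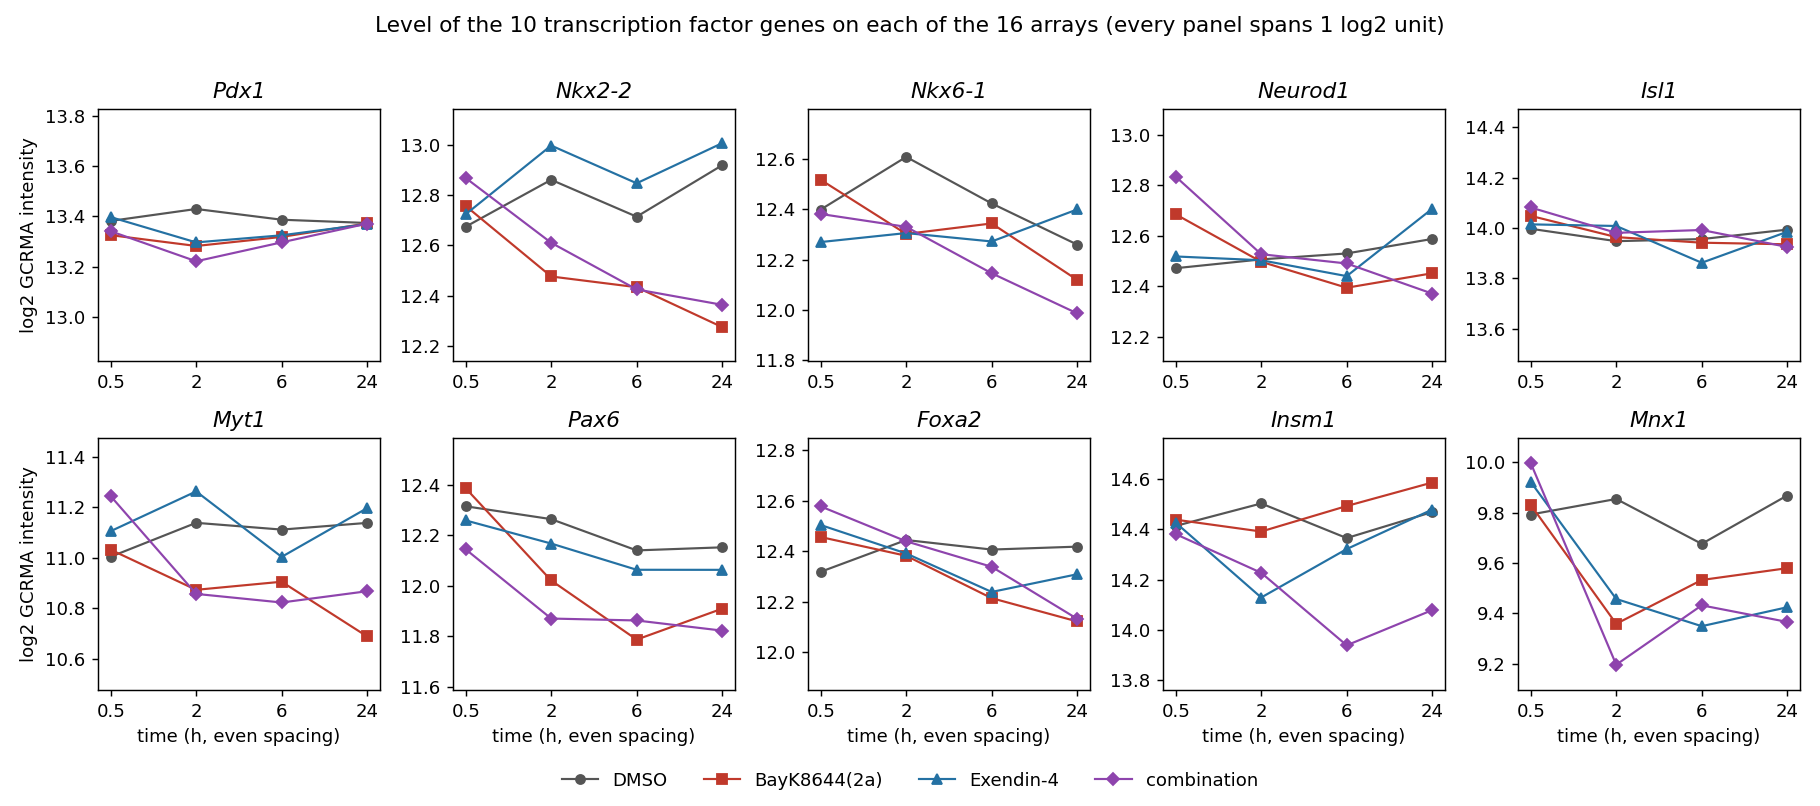
Log2 GCRMA intensity (vertical axis) of each of the 10 genes against time in hours (horizontal axis, drawn with even spacing), 1 point per array and 1 line per treatment, with every panel spanning 1 log2 unit. Nkx2-2 and Myt1 on the arrays with BayK8644 part from the arrays without it after 0.5 h, Mnx1 on the treated arrays lies under DMSO after 0.5 h, and Pdx1 and Isl1 stay nearly level.

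Nkx2-2, a homeodomain factor without which beta cells do not form, fell with BayK8644 at every time from 2 h on. On the DMSO arrays its level was 12.67, 12.86, 12.71 and 12.92 at 0.5, 2, 6 and 24 h. With BayK8644 it was 12.76, 12.48, 12.43 and 12.28. With Exendin-4 it was 12.72, 13.00, 12.85 and 13.01, and with the combination 12.87, 12.61, 12.43 and 12.36. From 2 h on, the 6 arrays with BayK8644 (12.28 to 12.61) all lay below the 6 without it (12.71 to 13.01), while at 0.5 h both arrays with it lay above both without it. In the model with an effect of each agent at each time, which sets the 2 arrays with an agent against the 2 without it, Nkx2-2 fell by 0.38 ± 0.06 at 2 h (SE; limma adjusted p = 0.0113), by 0.35 ± 0.06 at 6 h (adjusted p = 0.0143) and by 0.64 ± 0.06 at 24 h (0.641-fold, adjusted p = 0.000499). At 0.5 h the difference was 0.11 ± 0.06 (adjusted p = 1). The effect at 24 h was lower than that at 0.5 h by 0.75 ± 0.08, and this test of the difference passed (adjusted p = 0.00437).

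The change in Nkx2-2 was present in both pairs of arrays, with and without exendin-4. At 24 h the level with BayK8644 less that with DMSO was -0.64, and the level with the combination less that with exendin-4 was -0.64. The same differences were -0.38 and -0.39 at 2 h and -0.28 and -0.42 at 6 h. The 24 h fall kept its call when each of the 16 arrays was left out in turn. The falls at 2 h and 6 h were each lost when any 1 array of that time was left out, with adjusted p between 0.143 and 0.187 at 2 h and between 0.088 and 0.221 at 6 h. The difference between 24 h and 0.5 h was lost without any 1 array of 0.5 h (adjusted p between 0.0766 and 0.0893).

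Myt1, a zinc finger factor of endocrine progenitors, had levels of 11.00, 11.14, 11.11 and 11.14 with DMSO and 11.03, 10.87, 10.91 and 10.69 with BayK8644 at 0.5, 2, 6 and 24 h. With exendin-4 they were 11.11, 11.26, 11.00 and 11.20, and with the combination 11.24, 10.86, 10.82 and 10.87. As for Nkx2-2, the arrays with BayK8644 from 2 h on (10.69 to 10.91) did not overlap those without it (11.00 to 11.26). Myt1 fell with BayK8644 by 0.39 ± 0.07 at 24 h (adjusted p = 0.0184), a call that was lost when either the exendin-4 array or the combination array of 24 h was left out (adjusted p = 0.0634 and 0.0647). At 2 h the difference was -0.34 ± 0.07 (adjusted p = 0.057) and at 6 h -0.19 ± 0.07 (adjusted p = 0.235), neither past the threshold. Over the 16 arrays the levels of Myt1 and Nkx2-2 had a Pearson r of 0.921, given as a description, since the arrays share treatments and times.

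Pax6, a paired-box factor of all islet endocrine cells, combined a change with BayK8644 and a change with time. Its levels were 12.32, 12.26, 12.14 and 12.15 with DMSO and 12.39, 12.02, 11.79 and 11.91 with BayK8644 at 0.5, 2, 6 and 24 h. They were 12.26, 12.17, 12.06 and 12.06 with exendin-4 and 12.14, 11.87, 11.86 and 11.82 with the combination. From 2 h on, the arrays with BayK8644 (11.79 to 12.02) lay below those without it (12.06 to 12.26). The difference between both agents and DMSO over all times was -0.29 ± 0.06 (SE, n = 4 arrays each; adjusted p = 0.0174), the only one of the 10 genes to pass there. This call was lost without the DMSO array of 2 h or 6 h or the combination array of 2 h or 24 h (adjusted p = 0.0734, 0.0779, 0.0738 and 0.0643), and without all arrays of 2, 6 or 24 h (adjusted p = 0.195, 0.124 and 0.0872). Within single times, the differences with BayK8644 in Pax6 did not pass. Pax6 also fell over time, by 0.31 from 0.5 h to 6 h (adjusted p = 0.00957) and by 0.29 from 0.5 h to 24 h (adjusted p = 0.00328). Its level at 24 h was lower than at 0.5 h under each treatment, by values between -0.16 with DMSO and -0.48 with BayK8644.

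Among the 10 genes, 0 passed with BayK8644 at 0.5 h, where 0.217% of all genes tested were called. At 2 h and at 6 h 1 gene was called, Nkx2-2, where the share over all genes was 1.63 and 2.48% (0.481 and 0.773% fell). At 24 h 2 of 10 fell, Nkx2-2 and Myt1, against 5.11% called over all genes and 2.12% that fell. The median difference of the 10 genes with BayK8644 was 0.07, -0.13, -0.08 and -0.24 at 0.5, 2, 6 and 24 h, and that of all genes tested was 0.01, -0.01, 0.01 and 0.01. At 24 h 9 of the 10 differences were below 0, as they were at 2 h and 6 h, against 3 at 0.5 h. Of all genes tested 48.4, 53.8, 45.3 and 45.5% were below 0 at 24, 2, 6 and 0.5 h. Each difference is the mean of 2 pairs of arrays, without and with exendin-4, which did not always share a sign. At 2 h the pairs differed in sign for Nkx6-1, Neurod1, Isl1, Foxa2 and Insm1. At 6 h they did for Neurod1, Isl1, Foxa2, Insm1 and Mnx1. At 24 h they did for Insm1 and for Pdx1, which hardly moved. For the difference between the effects at 24 h and 0.5 h, 1 of 10 was called, Nkx2-2, where 1.02% of all genes were. No test over the 10 genes as a set was made.

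**Figure D2:**
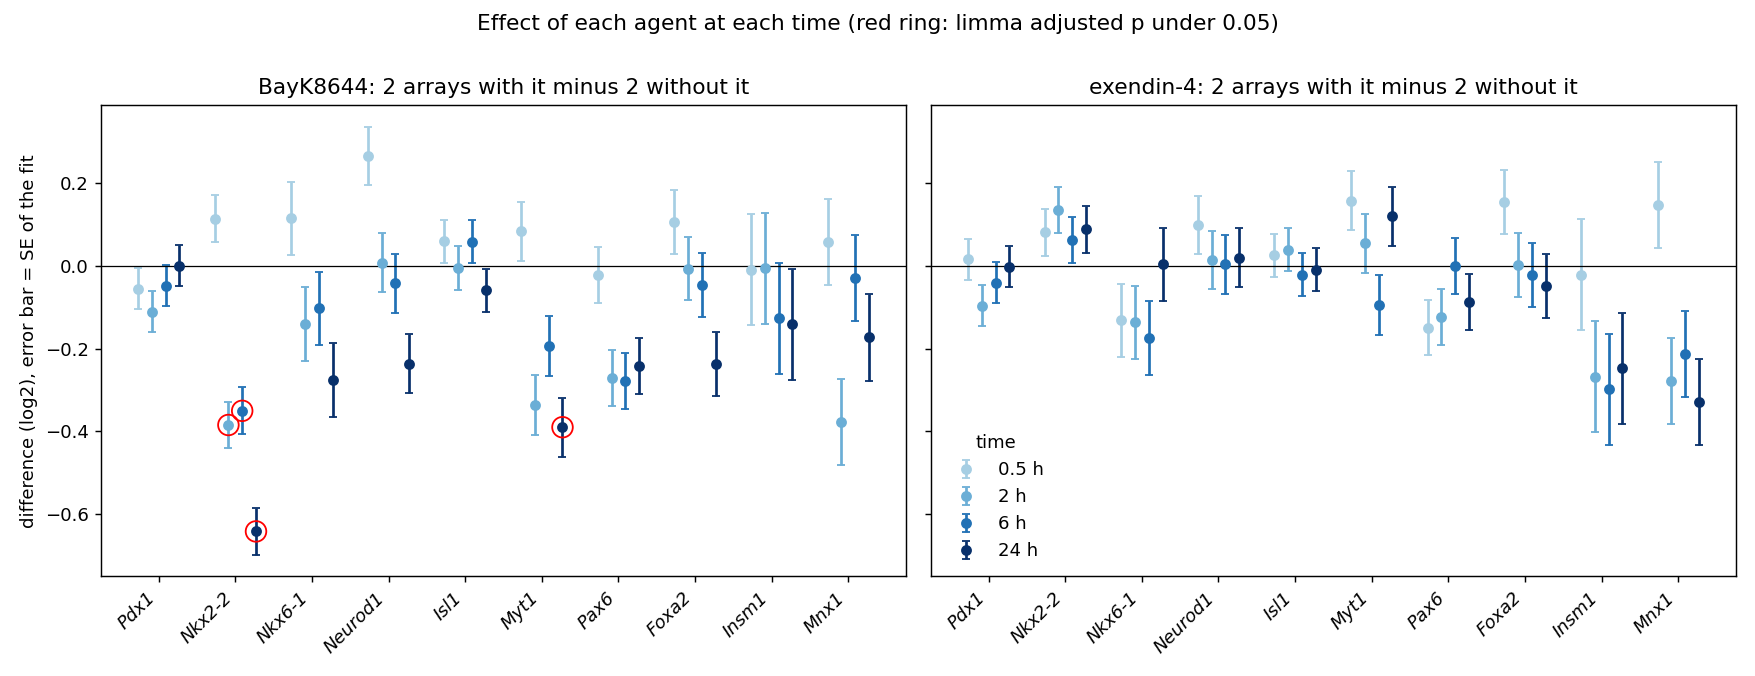
Difference in log2 level between the 2 arrays with an agent and the 2 without it (vertical axis) for each gene at 0.5, 2, 6 and 24 h, with BayK8644 on the left and exendin-4 on the right; error bars are limma SE and red rings mark adjusted p under 0.05. The ringed points are Nkx2-2 at 2, 6 and 24 h (-0.38, -0.35 and -0.64) and Myt1 at 24 h (-0.39), all with BayK8644.

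Since the arrays with BayK8644 include those of the combination, each agent was also tested as present or absent over all 16 arrays, a comparison added after the data were seen. With BayK8644 present, Pax6 fell by 0.20 ± 0.04 (SE, 8 arrays with and 8 without; adjusted p = 0.00855), Nkx2-2 by 0.32 ± 0.07 (adjusted p = 0.0189) and Myt1 by 0.21 ± 0.06 (adjusted p = 0.0448). Without all arrays of 2, 6 or 24 h none of these 3 passed (limma adjusted p between 0.0718 and 0.258), and Myt1 was also lost without any 1 array of those times (adjusted p between 0.058 and 0.102). These 3 of 10 stand beside 8.86% called over all genes, of which 3.97% fell. The same 3 genes were those whose arrays with and without BayK8644 did not overlap from 2 h on, where 1.8% of all genes had every array with BayK8644 lower. In BayK8644 alone against DMSO over all times 0 of the 10 passed with limma, where 0.839% of all genes did and 0.358% fell. Nkx2-2 differed by -0.31 (adjusted p = 0.201), Pax6 by -0.19 (adjusted p = 0.147) and Myt1 by -0.22 (adjusted p = 0.254). Without all arrays of 0.5 h, Nkx2-2, Myt1 and Pax6 passed in that comparison too. Far more of all genes were then called as well. The 0.839% is therefore much too low a background for these 3 calls.

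At 24 h alone, 7 of the 10 genes had both arrays with BayK8644 below both without it, a pattern met by 22.5% of all genes. These were Nkx2-2, Myt1, Pax6, Neurod1, Nkx6-1, Foxa2 and Isl1. Neurod1, a basic helix-loop-helix activator of the insulin gene, had levels of 12.47, 12.51, 12.53 and 12.59 with DMSO and 12.68, 12.50, 12.39 and 12.45 with BayK8644. With exendin-4 they were 12.52, 12.50, 12.44 and 12.71, and with the combination 12.83, 12.53, 12.49 and 12.37. The arrays with BayK8644 were thus the highest at 0.5 h and the lowest at 24 h. The differences were 0.27 ± 0.07 at 0.5 h (adjusted p = 0.874) and -0.24 ± 0.07 at 24 h (adjusted p = 0.0889), and the change between them was -0.50 ± 0.10 (adjusted p = 0.0584), so none passed. Its second probe set, at a mean of 12.44, followed the first with r = 0.88 over the 16 arrays, and with that probe set in its place Neurod1 passed at 24 h.

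Nkx6-1, a homeodomain repressor that keeps beta cells from adopting other islet fates, lay between 11.99 and 12.61. Its lowest arrays were those of the combination and of BayK8644 at 24 h, at 11.99 and 12.12, and the 24 h difference with BayK8644 was -0.28 ± 0.09 (adjusted p = 0.109). Foxa2, the pioneer factor, lay between 12.12 and 12.58. At 24 h it stood at 12.12 with BayK8644 and 12.13 with the combination, against 12.42 with DMSO and 12.31 with exendin-4, a difference of -0.24 ± 0.08 (adjusted p = 0.112). The 95% intervals of these differences, -0.48 to -0.08 for Nkx6-1 and -0.41 to -0.06 for Foxa2, were each for 1 gene and not adjusted for the number of genes.

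Mnx1, a homeodomain factor that guards beta-cell fate against delta-cell fate, was low on the treated arrays after 0.5 h. On the DMSO arrays its level was 9.79, 9.85, 9.68 and 9.87 at 0.5, 2, 6 and 24 h. With BayK8644 it was 9.83, 9.36, 9.53 and 9.58. With exendin-4 it was 9.92, 9.46, 9.35 and 9.42, and with the combination 9.996, 9.20, 9.43 and 9.37. From 2 h on, all 9 arrays with an agent (9.20 to 9.58) lay below the 3 DMSO arrays (9.68 to 9.87). Across all genes 1.43% had every treated array lower. Pdx1 met this count too, but only beyond the second decimal: its lowest DMSO array and its highest treated array both read 13.37, so its groups touch. The count was made after the data were seen. Between 0.5 h and 24 h the level moved by 0.08 with DMSO and by -0.25, -0.50 and -0.63 with BayK8644, exendin-4 and the combination. Averaged over the treatments, Mnx1 fell from 0.5 h by 0.42 at 2 h (adjusted p = 0.039), 0.39 at 6 h (adjusted p = 0.0393) and 0.33 at 24 h (adjusted p = 0.0384). These calls were lost in 14, 12 and 9 of 27 alternatives, with adjusted p up to 0.161, 0.135 and 0.141, and each of them without any 1 treated array of 0.5 h. Against DMSO over all times the combination differed by -0.30 (adjusted p = 0.0885), and exendin-4 at 24 h differed by -0.33 (adjusted p = 0.783), neither past the threshold. Whether the course of Mnx1 differed between the treated and the DMSO arrays was not tested.

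Insm1, a zinc finger repressor of endocrine progenitors, had its lowest levels on the combination arrays of 6 h and 24 h. Its levels were 14.41, 14.50, 14.36 and 14.47 with DMSO and 14.44, 14.39, 14.49 and 14.58 with BayK8644 at 0.5, 2, 6 and 24 h. With exendin-4 they were 14.43, 14.13, 14.32 and 14.48. With the combination they were 14.38, 14.23, 13.94 and 14.08. The 6 h and 24 h values of the combination were below those of every other array. The combination less DMSO was -0.43 at 6 h and -0.39 at 24 h, with 1 array each. Over all times the difference was -0.28 and missed the threshold narrowly (adjusted p = 0.0503). The second Insm1 probe set, at a mean of 12.52, followed the first only loosely (r = 0.429) and gave a difference of -0.06 over all times. Its lowest arrays were exendin-4 at 6 h (12.28) and the combination at 24 h (12.29), while the combination at 6 h read 12.46. With BayK8644 at 24 h, the highest array of the first probe set, it read 12.40, against 12.68 with DMSO. Both the size of the difference and the pattern over the arrays thus depend on the probe set.

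Pdx1, the activator of insulin transcription, had the narrowest range of the 10 genes, while Isl1 had the lower SD over the 16 arrays (0.0514 against 0.0522). Pdx1 lay between 13.37 and 13.43 with DMSO, 13.28 and 13.37 with BayK8644, 13.30 and 13.40 with exendin-4, and 13.22 and 13.37 with the combination. Its mean was 13.39 ± 0.02 with DMSO and 13.31 ± 0.06 with the combination (SD, n = 4 times). At 24 h all 4 arrays stood at 13.37, with a difference of 0.00 for BayK8644 (adjusted p = 0.999). Its second probe set, at a mean of 11.74, gave 0.17 at 24 h. Isl1, a LIM-homeodomain partner of Neurod1 and Pdx1 at islet enhancers, lay between 13.86 and 14.08. At 24 h it differed by -0.06 ± 0.05 with BayK8644 (adjusted p = 0.548), with a 95% interval from -0.18 to 0.06.

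Exendin-4 called 0 of the 10 genes in limma, over all times or at any time. The share over all genes was 0% over all times, at 6 h and at 24 h, 0.00943% at 0.5 h and 0.0189% at 2 h. Of all genes tested 698 had an unadjusted p under 0.05 over all times, 739 at 6 h and 627 at 24 h. With exendin-4 present or absent over the 16 arrays 0 genes were called either (1295 at an unadjusted p under 0.05), and Insm1 differed by -0.21 (adjusted p = 0.263). The departure of the combination from the sum of both agents was called for 0 of the 10 and 0% of all genes (710 at an unadjusted p under 0.05). In the combination against DMSO over all times, Pax6 was called as 1 of 10, where 6.97% of all genes were called and 2.59% fell. There the median of the 10 genes was -0.18, against 0.02 over all genes. Both comparisons with DMSO share its arrays, so their values are not independent.

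Some of the 10 genes also fell with culture time. From 0.5 h to 24 h 3 of the 10 genes fell, Pax6, Mnx1 and Foxa2 (-0.22 ± 0.07, adjusted p = 0.031), where 23.6% of all genes were called and 13% fell. From 0.5 h to 6 h 2 fell, Pax6 and Mnx1 (8.41% called over all genes, 5.44% fell), and from 0.5 h to 2 h Mnx1 did (4.68 and 2.64%). For Foxa2 and Mnx1 the treatments did not run alike. In Foxa2, 24 h less 0.5 h was 0.10 with DMSO and -0.33, -0.20 and -0.45 with BayK8644, exendin-4 and the combination. In Mnx1 it was 0.08 with DMSO and -0.25, -0.50 and -0.63 in the same order. With DMSO, Mnx1 moved by 0.06 from 0.5 h to 2 h and by -0.12 to 6 h. At 24 h the falls of Foxa2 and Mnx1 were thus seen with each treatment but DMSO. The Foxa2 call was lost in 8 of 27 alternatives, with adjusted p up to 0.125, among them leaving out the BayK8644 or the combination array of 0.5 h or 24 h or the exendin-4 array of 0.5 h. At 3 of 10 against 23.6% of all genes, the count at 24 h is close to that of the genes at large.

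**Figure D3:**
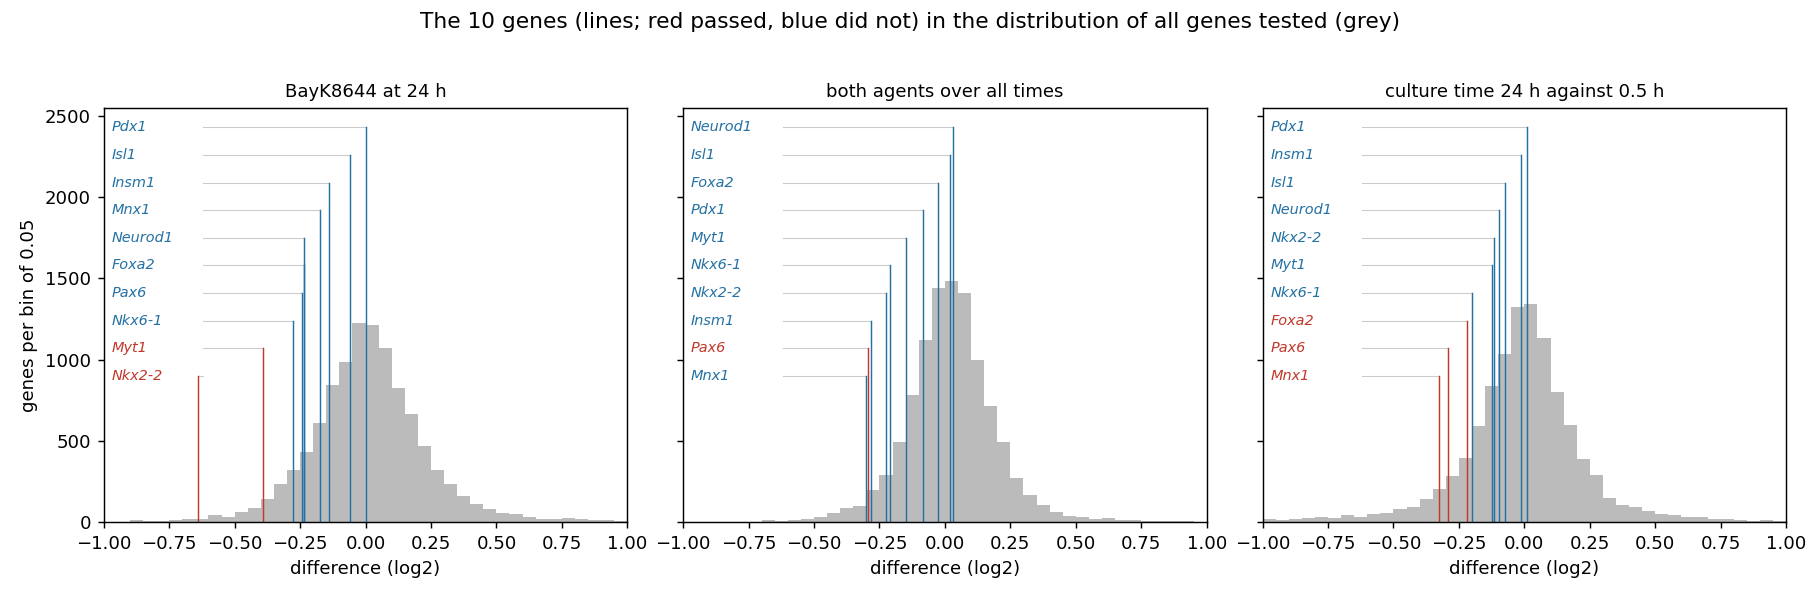
Number of genes tested per bin of 0.05 (vertical axis, grey) by difference in log2 level (horizontal axis; genes beyond 1 in either direction are not drawn) for BayK8644 at 24 h, for both agents over all times and for 24 h against 0.5 h, with a line for each of the 10 genes, red where it passed. With BayK8644 at 24 h, Nkx2-2 stands at -0.64 and Myt1 at -0.39, while Pdx1 stands at 0.00.

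Of the 19 probe sets of the 10 genes, 16 were above the filter. Pax6 had 3 of these, with means of 12.08, 11.43 and 9.233, and both others followed the first with r = 0.948 and 0.911. Each gave a lower level with both agents over all times, -0.29, -0.43 and -0.44. For Pax6 the fall thus did not hang on 1 probe set. Nkx2-2, Nkx6-1, Foxa2 and Mnx1 had 1 probe set, and the second probe set of Myt1 was under the filter, so for them no second measurement was at hand.

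**Figure D4:**
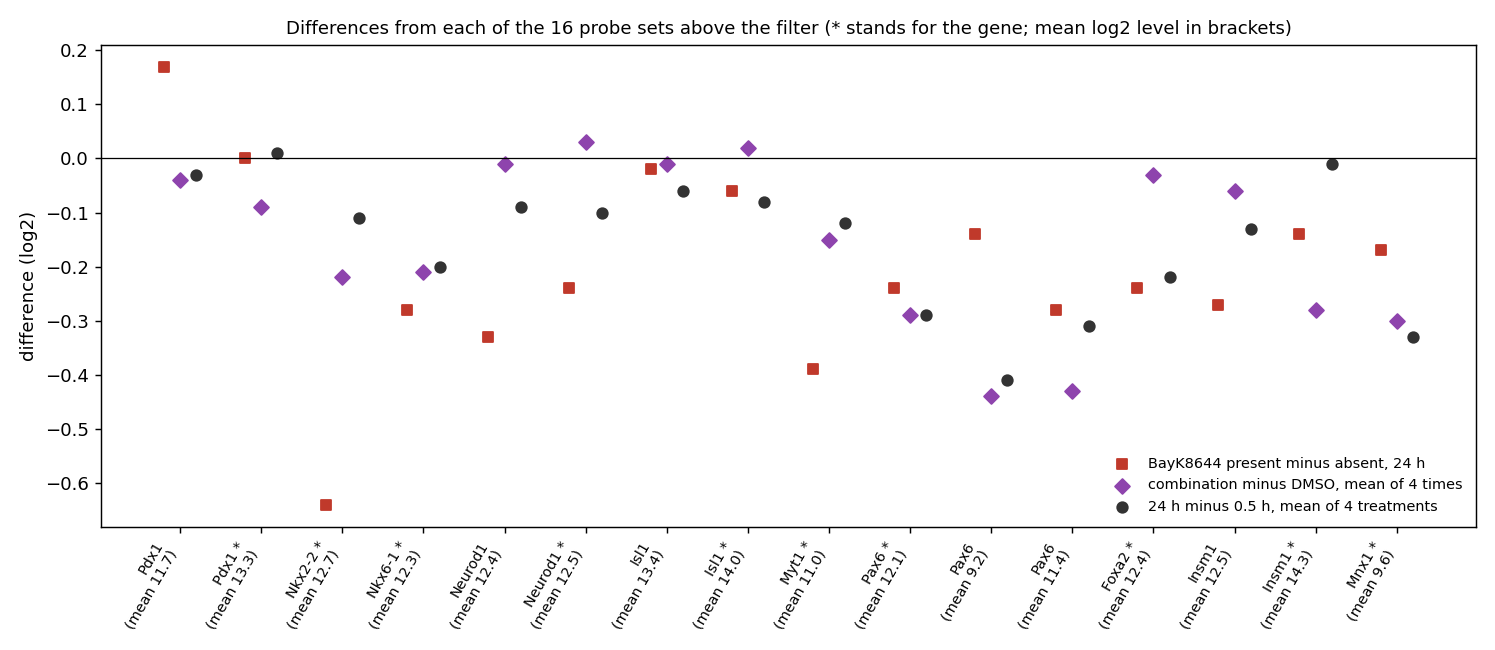
Difference in log2 level (vertical axis) from each of the 16 probe sets above the filter (horizontal axis; an asterisk marks the one that stands for the gene and brackets give its mean level) for BayK8644 present less absent at 24 h, the combination less DMSO over the 4 times, and 24 h less 0.5 h over the 4 treatments. The 3 Pax6 probe sets lie below 0 in all of them, whereas the Insm1 probe sets give -0.06 and -0.28 for the combination.

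The genes whose levels ran most like those of Nkx2-2 and Mnx1, the 2 with the widest range, were read from Pearson r over the 16 arrays, as a description. For Nkx2-2 these were Abca7 (0.965), Myt1 (0.921), Mrtfb (0.905), Rnf128 (0.902) and Il1r1 (0.898). The most opposed were Parp8 (-0.95), Hbegf (-0.918) and Gspt1 (-0.916). For Mnx1 they were Pkib (0.921), Cnpy4 (0.891), Nap1l3 (0.889), Galnt18 (0.879) and Fut8 (0.874), and the most opposed were Supv3l1 (-0.906), Gnl3 (-0.89) and Dusp3 (-0.882). Myt1 was the only one of the 10 genes among these.

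Other genes of the network were read from lists in the same way, beside 5.11% of all genes called with BayK8644 at 24 h, 2.12% that fell and a median of 0.01 over all genes. Of 15 tested of 35 further islet transcription factors, 1 rose with BayK8644 at 24 h and 0 fell, with a median of -0.06. The 1 was Bhlha15, a secretory cell factor whose arrays lay between 3.424 and 5.509, near the filter level, at 0.90 ± 0.20 (adjusted p = 0.037). St18, Nr3c1 and Onecut2, those of highest level in that list, differed by -0.20, -0.24 and -0.34 and did not pass. Of 21 tested cofactors and dimer partners 0 rose and 2 fell, with a median of -0.19: Hdac2, a histone deacetylase, by 0.26 (adjusted p = 0.0318) and Rnf20, a ubiquitin ligase for histone H2B, by 0.23 (adjusted p = 0.0462). With both agents over all times 6.97% of all genes were called and 2.59% fell. There 3 of the 21 cofactors fell and 0 rose. The 3 were Ldb1, the LIM-domain adaptor of Isl1, Pbx3, a partner of homeodomain proteins, and Tle1, a corepressor. Of the 15 further islet factors 1 rose, Hnf4a, and 1 fell, Nr3c1. Of 21 tested beta-cell target genes 0 rose and 1 fell, Gipr.

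Targets of the network were read at 24 h too, against the same 5.11% called and 2.12% that fell over all genes, whose median was 0.01. Of 21 tested beta-cell target genes 0 rose and 4 fell with BayK8644, with a median of 0.01. Sytl4, an effector of insulin granule docking, fell by 0.56 (adjusted p = 0.000499), Syt13, a synaptotagmin, by 0.41 (adjusted p = 0.0107), Nnat by 0.30 (adjusted p = 0.014) and Papss2 by 0.27 (adjusted p = 0.0359). Ins2, Iapp and Ttr, the genes of highest level in the list, differed by 0.01, 0.10 and 0.17 and did not pass.

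Markers of other cells moved in part with BayK8644. At 24 h 5.11% of all genes tested were called with it and 2.12% fell. Each list had few genes above the filter, so its counts are a description. Of the alpha, delta, PP and epsilon cell markers 4 of 9 on the platform were above the filter, and 2 of these, Sst (2.36, adjusted p = 0.000218) and Gcg (0.56, adjusted p = 0.0176), rose at 24 h, while Irx1, Hhex, Ppy, Pyy and Ghrl were under the filter. Rbp4 and Irx2, the others above it, did not pass. Irx2, near the filter level, went the other way. At 24 h it was 4.26 with BayK8644 and 4.20 with the combination, against 4.92 with DMSO and 4.82 with exendin-4. The summed intensity of this list was 17470 to 20530 with DMSO, 17820 to 22280 with BayK8644, 16530 to 18270 with exendin-4 and 17980 to 22190 with the combination. Rbp4, at a mean log2 level of 14.13, carries nearly all of this sum, which therefore does not show the rises of Sst and Gcg. Among progenitor and immaturity markers 5 of 12 were above the filter and Gast rose by 1.46 (adjusted p = 0.000173), while Neurog3, Sox9 and Aldh1a3 were under it. Npy (-0.20, adjusted p = 0.0629), Ldha (0.12, adjusted p = 0.787), Slc16a1 and Hk1, the others above it, did not pass. The summed intensity of this list was 44960 to 53610 with DMSO, 40670 to 54440 with BayK8644, 43270 to 54010 with exendin-4 and 42510 to 57630 with the combination. Npy, at a mean log2 level of 15.38, carries most of this sum, which therefore does not show the rise of Gast. Of the 12 mesenchymal, endothelial and leukocyte markers only Vim was above the filter, and it rose by 0.97 (adjusted p = 0.000499). The sum of that list was 1127 to 1297 with DMSO, 1292 to 2510 with BayK8644, 1180 to 1295 with exendin-4 and 1417 to 2396 with the combination. Col1a1, Pecam1 and Ptprc, which define those cells, were under the filter. Of 12 acinar and duct cell markers 2 were above the filter and 0 passed, with sums of 843.7 to 1211 for DMSO, 835 to 1240 for BayK8644, 1007 to 1350 for exendin-4 and 999.3 to 1465 for the combination. The part of these markers in the falls of Nkx2-2 and Myt1 was not tested, and fewer cells of a type and less RNA per cell cannot be told apart in such bulk samples.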

How the data were processed

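The data were 16 one-colour Affymetrix arrays, 1 for each of 4 treatments at 4 times. The files hold linear intensity as deposited, computed by GCRMA per the submitters' processing notes. GCRMA uses probe sequence to correct background and then quantile-normalizes. Its version was not given in the sources used here. RNA was purified on columns and labelled with biotin, per the labels' protocols. Values were put on the log2 scale without a pseudocount. Of 45101 probe sets, 34958 had 1 symbol in the platform annotation, 932 several and 9211 none; those of the last kinds and 64 controls were left out. A probe set was kept at log2 4 (intensity 16) or more on at least 2 arrays, and the probe set of highest mean stood for a gene.

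Models were fitted across all 10610 genes with limma 3.58.1 (lmFit, eBayes with a trend) in R 4.3.3, with Benjamini-Hochberg adjustment and a threshold of 0.05. One model had terms for treatment and time (9 residual degrees of freedom), and effects that vary with time add to its error. The model by time gave each agent an additive effect at each time (4 residual degrees of freedom, error pooled over times). Its error is the departure of the agents from adding up at each time, which cannot be told apart from spread between arrays. A model of each agent as present or absent (10 residual degrees of freedom) and the counts of arrays that do not overlap were added after the data were seen. On simulated data of 10610 genes, BayK8644 at 24 h recovered 10, 58, 86 and 98% of genes changed by 0.3, 0.5, 1 and 2, with 5 false calls. The number of arrays limits the precision.

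The 10 genes and the lists were chosen with earlier results of these data known. From other lists the text names the genes called with BayK8644 at 24 h or over all times (up to 6) and the 3 of highest level, and, for likeness, the 5 genes of highest and 3 of lowest r. List members it names beyond this were chosen after their values were seen. Promoter windows came from RefSeq (GRCm38.p6).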

Additional observations from a re-analysis of the deposited data

Results flagged for a closer look

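A pair of values stood apart from the other arrays of their group. Myt1 on the combination array of 0.5 h was at 11.24, where the other 3 combination arrays lay between 10.82 and 10.87. Pax6 on the same array was at 12.14, where the others lay between 11.82 and 11.87. Each gap exceeded Dixon's 95% critical value for 4 samples. The 4 arrays of a treatment are different times and not replicates, and of 40 groups of 4 examined, 2 met the criterion, where chance flags about 1 in 20.

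The effect of BayK8644 on Nkx2-2 differed between times: at 24 h less 0.5 h it was -0.75 (limma interaction, adjusted p = 0.00437), with both pairs of arrays above 0 at 0.5 h (0.08 and 0.14) and both below 0 at 24 h (-0.64 and -0.64).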

How the results depend on the processing

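Of 545 counts of called genes computed under 32 settings, 452 stayed within 1.5 times the main count, and no difference of the 10 genes that had passed changed sign. The 545 include comparisons with 0 of the 10 genes called in the main fit, such as those of exendin-4. A count that stayed at 0 was scored as within the bound, so the 452 say little of the comparisons with a call. Nkx2-2 with BayK8644 at 24 h passed in 28 of 28 settings (-0.6539 to -0.6401, adjusted p up to 0.0104).

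The calls named next are counts among the 10 genes. BayK8644 over all times rose from 0 to 3 without the 0.5 h arrays, where the calls over all genes rose too. Both agents over all times rose from 1 to 2 with a stricter filter, median centring, quantile normalization or a robust fit. The count rose to 5 with array weights and to 6 without the 0.5 h arrays. It dropped to 0 without the 2, 6 or 24 h arrays or with only the 2 treatments compared. For both agents, the calls over all genes rose in each setting where this count rose. They dropped in each setting where it dropped, so these swings were not particular to the 10 genes. Culture time 24 h dropped from 3 to 1, 6 h from 2 to 1 and 2 h from 1 to 0 with no filter or without the arrays of some other times. BayK8644 at 2 h became 2 with other probe sets, with other scalings, with array weights or without the 24 h arrays, and 0 with no trend. At 6 h it became 2 with other scalings and 0 with no trend, and at 24 h it became 4 with second probe sets and 1 with array weights. The effect at 24 h less that at 0.5 h became 2 with other probe sets or quantile normalization. BayK8644 present against absent dropped from 3 to 0 without the 2, 6 or 24 h arrays.

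With each array left out in turn, the counts ran from 0 to 0 for BayK8644 at 0.5 h, 0 to 2 at 2 h, 0 to 1 at 6 h and 1 to 4 at 24 h. They ran from 0 to 2 for the effect at 24 h less that at 0.5 h, 0 to 1 for BayK8644 over all times, 2 to 3 for BayK8644 present, 0 to 6 for both agents, 0 to 2, 1 to 3 and 1 to 3 for culture time 2, 6 and 24 h, and 0 to 0 for exendin-4. Where that leaves 1 array on a side, the lone array is assumed to vary like the others. With each array left out, the counts over all genes moved as well, in the comparisons over all times and in those by time. With BayK8644 they moved widely at 2, 6 and 24 h and for the effect at 24 h less that at 0.5 h. The ranges given above for these comparisons thus have no fixed background. Over all times the counts over all genes ran from 16 to 305 for BayK8644, 491 to 1584 for BayK8644 present and 75 to 2218 for both agents. For culture time 2, 6 and 24 h they ran from 84 to 714, 204 to 1134 and 1726 to 2630. The causes were not tested. The labels carry no replicate numbers, and arrays were matched by time alone, which is a term of the models. The simulated data show that changes of 0.3 at a single time are mostly missed with 16 arrays.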
